A study of Macaca mulatta with 6 samples.

Results

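Molecular motors are proteins that use ATP to move along the cytoskeleton. Myosins (MYH and MYO genes) pull on actin filaments, and the class II myosins of muscle form the thick filaments of the sarcomere. Kinesins (KIF genes) walk along microtubules, mostly towards the plus end, and carry vesicles or build the mitotic spindle. Dyneins move towards the minus end: cytoplasmic dynein (DYNC genes) carries cargo through the cell, and the axonemal heavy chains (DNAH genes) drive the beat of motile cilia and sperm tails. Motor heavy chains are as a class long proteins, and those of muscle and motile cilia are made mainly in those tissues.

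The genes described here were taken by their symbols, as all genes of the summed count table whose macaque symbol begins with MYO, MYH, KIF or DNAH and a digit, with KIFC, or with DYNC. This gave 96 genes out of 24186 with a symbol and 35432 in all. They were 24 unconventional myosins, 10 class II myosins, 41 kinesins, 12 axonemal dynein heavy chains and 9 cytoplasmic dynein subunits. MYH2, MYH3, MYH6, MYH8, MYH16, MYO9B, DNAH17, KIF17 and KIF28 matched no symbol and were not analysed here. RefSeq, on assembly T2T-MMU8v2.0, lists each of the 96 genes with a protein.

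The study sequenced plasma RNA of 2 rhesus macaques, named animals A and B here, after separation into a lipoprotein, an extracellular vesicle (EV) and a protein fraction, with 1 library per fraction and animal. EVs are membrane-bound particles released by cells. The labels describe every sample as plasma EV, treated with proteinase K, RNase and DNase, and give no age, strain or stress history. Gene counts were used for both EV libraries and, for each animal, for the authors' sum over libraries they do not name. With 1 EV library and 1 sum per animal, nothing here is a comparison of conditions, and no p-value was computed.

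Counts were few. The EV libraries had 2615337 input reads in A and 913091 in B, and total gene counts of 10397 and 2842. The sums held 62794 and 54534 counts. A floor of 3 counts, set for genes at 0, was 0.0289% of the EV counts in A, 0.106% in B, and 0.00478% and 0.00550% of the sums. The 95% interval of a gene at 0 ran higher, up to 0.0355%, 0.130%, 0.00587% and 0.00676% in the same order. Intervals are 95% Clopper-Pearson intervals, or exact intervals for a ratio of shares, and cover counting error only; ratios between the sums treat both as independent, which is not known. Of the vesicle markers CD9 alone had EV counts, 2 in each animal, and the erythroid and platelet markers (7 features each) were at 0 in every column. In plasma RNA, fewer source cells and less RNA per cell cannot be told apart.

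Motor genes were found more often than named genes in general in both sums and in the EVs of animal A, and about as rarely as named genes in those of animal B. In the sum of A, 35 of 96 motor genes (36.5%) had a count, against 13.3% of all named genes and 18.7% of the 16836 named genes that RefSeq lists as protein-coding. In the sum of B it was 30 of 96 (31.3%), against 10.5% and 14.8%. The EV library of A had 15 of 96 (15.6%), against 2.96% and 4.14%. That of B had 1 of 96 (1.04%), against 1.40% and 1.95%. The mean over the EV libraries was 8.33% ± 10.3 (SD, n = 2), an SD larger than the mean. Gene lengths were not used here, so whether other long genes were found as often was not tested.

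Most of these genes rested on very few counts, which are counts per gene and not levels per length. In the sum of A the detected motor genes had a median of 2 counts and 13 of the 35 had a lone count (37.1%). In B the median was 1 and 16 of the 30 had a lone count (53.3%). Detected named genes had a median of 1 in both sums, and 58.6% of them in A and 60.2% in B had a lone count. At a minimum of 2 counts, 22 of the 96 motor genes were found in the sum of A and 14 in that of B. The EVs of A had 8 of the 96 and those of B none. The shares of named genes were 5.49%, 4.18%, 1.03% and 0.389%. At 3 counts it was 11, 7, 4 and none of the 96 motor genes, against 3.42%, 2.62%, 0.628% and 0.244% of named genes. At least 10 counts were reached by 5 motor genes in A and 4 in B, or 5.21% and 4.17%, against 0.996% and 0.823% of named genes. Together the motor genes held 224 counts in the sum of A, 0.357% of it (0.312% to 0.407%), and 146 in B, 0.268% (0.226% to 0.315%). A total of 40 motor genes (41.7%) had a count in either sum, against 15.9% of named genes. In both sums 25 motor genes had a count, which was 71.4% of those found in A and 83.3% of those found in B. For named genes these shares were 59.5% and 75.1%. The remaining 56 motor genes were at 0 in all 4 columns, as were 20325 of the 24186 named genes.

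**Figure D1:**
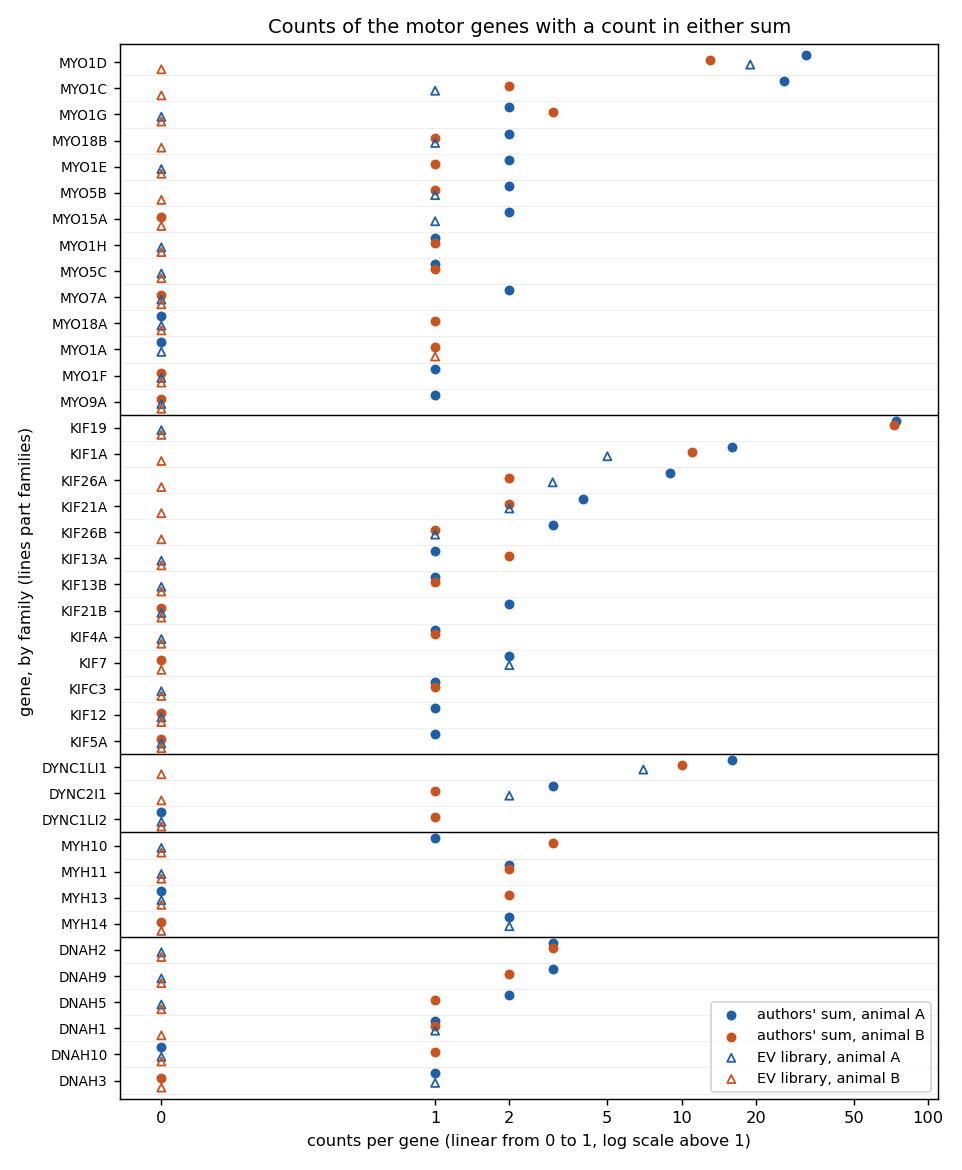
Counts of the 40 motor genes with a count in either sum, 1 row per gene, sorted within families; filled circles are the authors' sums and open triangles the EV libraries, blue for animal A and orange for animal B. The horizontal axis is linear from 0 to 1 and logarithmic above. KIF19 stands at 74 and 73 in the sums with no EV count, and MYO1A is the only gene with an EV count in animal B.

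KIF19 led the family. It encodes a kinesin that shortens microtubules at the tips of motile cilia. Its summed count was 74 in A and 73 in B, or 0.118% (0.0925% to 0.148%) and 0.134% (0.105% to 0.168%) of the sums, and it had 0 counts in both EV libraries. The values of the animals were nearly the same, with a ratio of shares, A over B, of 0.880 (0.628 to 1.23). KIF19 ranked 47th of the named genes in the sum of A and 38th in B. It supplied 33.0% of the motor gene counts in the sum of A, and 73 of 146 in B. On the RefSeq assembly no other gene overlaps KIF19. Its neighbours there are DNAI2, an axonemal dynein intermediate chain gene, with 0 counts in every column, and BTBD17, with 3 counts in the sum of A and 0 elsewhere. The other motile cilium kinesins, KIF6, KIF9 and KIF27, had 0 counts throughout.

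Axonemal dynein heavy chains were found in 5 of 12 genes (41.7%) in each sum, all at 3 counts or fewer. Named genes stood at 13.3% in A and 10.5% in B. DNAH2, an inner arm chain, had 3 and 3 counts, DNAH9 and DNAH5, which are outer arm chains, had 3 and 2 and 2 and 1, and DNAH1 had 1 and 1. DNAH3 had a count in A alone and DNAH10 in B alone. The EV library of A held 1 count each of DNAH1 and DNAH3, and that of B none. DNAH6, DNAH11, DNAH12 and DNAH14 were among the 6 chains at 0 in all columns. At this depth no order among the chains can be read.

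Muscle myosins had equally low counts per gene. Of the 8 sarcomeric and smooth muscle members, 2 had a count in A (25%) and 3 in B (37.5%), against 13.3% and 10.5% of named genes. MYH11, the smooth muscle heavy chain, had 2 counts in each sum. MYO18B, a myosin of striated muscle, had 2 and 1, with 1 EV count in A. MYH13, the extraocular muscle heavy chain, had 0 and 2. The other matched chains, MYH1, MYH4, MYH7, MYH7B and MYH15, had 0 counts in every column; MYH1 and MYH4 are chains of fast limb muscle and MYH7 of slow muscle and heart. Muscle chains are closely alike, so reads that map to several of them may be missing. Non-muscle myosin II, which contracts the actin cortex of most cells, had 2 of 3 genes in A and 1 in B: MYH10 with 1 and 3 counts, MYH14 with 2 and 0, and MYH9 with 0.

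Unconventional myosins, which tether membranes to actin or carry vesicles, were found in 12 of 24 genes (50%) in A and 10 (41.7%) in B. The shares of named genes were 13.3% and 10.5%. MYO1D, a class I myosin that links membranes to actin, had 32 counts in the sum of A and 13 in B, a ratio of shares of 2.14 (1.09 to 4.44). Its EV count was 19 in A, 0.183% of the library (0.110% to 0.285%), and 0 in B. The exact interval for the ratio of EV shares, A over B, began at 1.28 and has no upper limit. MYO1C, a class I myosin of the plasma membrane and nucleus, had 26 counts in the sum of A and 2 in B, a ratio of shares of 11.3 (2.83 to 98.2), with EV counts of 1 and 0. The other 4 widely expressed members with a count were MYO1E and MYO5B with 2 in A and 1 in B, MYO9A with 1 and 0 and MYO18A with 0 and 1. MYO5A, MYO6, MYO10 and MYO19 had none. On the RefSeq assembly, 2 other features overlap MYO1D and 1 overlaps MYO1C, none of them a named gene of the table, and reads from these could be counted with the myosins. A further group was listed as myosins of hair cells, brush border, brain or blood cells, a label that is loose for MYO5C. It had a count in 6 of 12 genes (50%) in A and 4 (33.3%) in B, all at 3 counts or fewer. MYO1G, of lymphocytes, had 2 and 3, and MYO7A and MYO15A, motors of hair cells, each had 2 and 0. MYO5C and MYO1H had 1 and 1, and MYO1F, of leukocytes, 1 and 0. MYO1A, the brush border myosin, had its lone count in the EV library of B. The leukocyte markers stood at 4 counts in the sum of A and 2 in B, from CD4 and CD14, and PTPRC, MS4A1 and LYZ were at 0; their part in the myosin counts was not tested.

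Apart from KIF19, kinesins with a count came from neuronal and widely expressed transport, cell division and other roles, and none from the motile cilium. Of the 7 neuronal transport kinesins, 4 had a count in A (57.1%) and 2 in B (28.6%), against 13.3% and 10.5% of named genes. KIF1A, which carries synaptic vesicle precursors along axons, had 16 counts in the sum of A and 11 in B, with 5 and 0 EV counts, and a ratio of summed shares of 1.26 (0.551 to 3.01). KIF21A had 4 and 2, KIF21B 2 and 0, and KIF5A 1 and 0. KIF26A, an atypical kinesin of the enteric nervous system, had 9 and 2 counts, with 3 and 0 in the EV libraries, and a ratio of 3.91 (0.809 to 37.2); 1 RefSeq feature without a name in the table overlaps it. For KIF1A and KIF26A the interval included 1, so no difference between the animals was detectable at this depth. Related KIF26B had 3 and 1, KIF7, a kinesin of Hedgehog signalling in the primary cilium, 2 and 0, and KIF12 1 and 0. Widely expressed transport kinesins had 3 of 10 genes (30%) in each sum, KIF13A, KIF13B and KIFC3, each at 1 or 2 counts. KIF5B, KIF1B, KIF3A and KIF2A, which serve most cells, were at 0 in every column. Cell division kinesins had 1 of 13 genes (7.69%) in each sum, KIF4A with 1 and 1; KIF4B is a near copy of KIF4A, so how reads fell between them is uncertain. KIF11, KIF14, KIF15 and KIF18A were among the 12 at 0. Neuron markers stood at 3 and 2 counts in the sums, from RBFOX3 and NEFL, with SNAP25, SYT1 and STMN2 at 0, and their part in the KIF1A counts was not tested.

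Cytoplasmic dynein rested mainly on a light intermediate chain. DYNC1LI1, which couples dynein 1 to its cargo adaptors, had 16 counts in the sum of A and 10 in B, with 7 and 0 in the EV libraries. Its ratio of summed shares was 1.39 (0.593 to 3.43), so no difference between the animals was detectable. DYNC1LI2 had 0 and 1. The heavy chain DYNC1H1, the motor subunit itself, and the intermediate chains DYNC1I1 and DYNC1I2 had 0 counts in every column. In dynein 2, which returns cargo along cilia, DYNC2I1 had 3 and 1 counts, with 2 in the EV library of A, while the heavy chain DYNC2H1 and DYNC2I2 and DYNC2LI1 had 0.

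**Figure D2:**
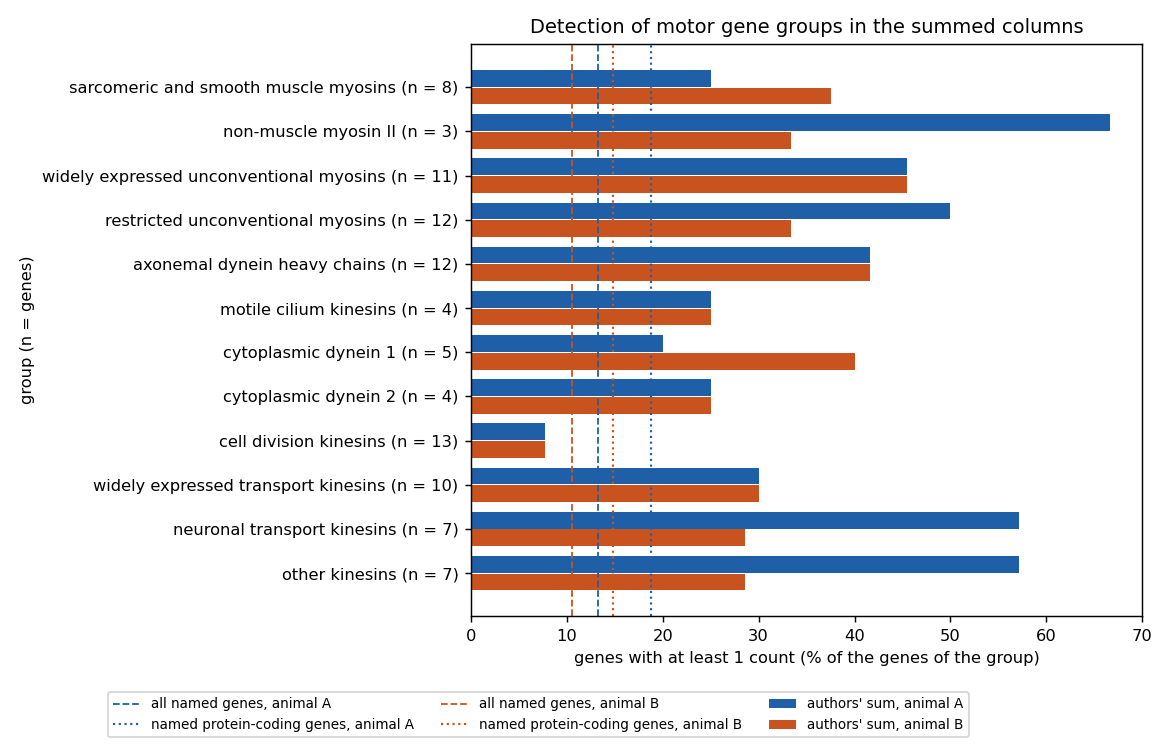
Percent of genes with at least 1 count in the authors' sums, by group of motor genes; blue bars are animal A and orange bars animal B, dashed lines mark all named genes and dotted lines named protein-coding genes. The cell division kinesins, at 7.69% in both, are the only group below every line; groups of 3 to 13 genes move in large steps.

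At a minimum of 1 count, motors of muscle and cilia were found about as often in the sums as those most cells express. Of the 24 muscle and cilium members (muscle myosins, axonemal heavy chains and motile cilium kinesins), 8 had a count in the sum of A (33.3%) and 9 in B (37.5%). Of the 33 widely expressed members (non-muscle myosin II, the widely expressed unconventional myosins and transport kinesins, and both cytoplasmic dyneins), 12 had a count in each sum (36.4%). The difference was -3.03 percentage points in A and 1.14 in B, which is less than the step of 1 gene in 24 (4.17 points). The difference moved with the setting: less the EV counts, A stood at -8.33 points while B kept 1.14, and a minimum of 2 counts gave 3.79 and 5.68, so no order of the sets can be read. Both sets held 88 counts in A, and 86 against 37 in B. KIF19 supplied most of those in the first set, which without it held 14 in A and 13 in B. In the second set, MYO1D held 32 counts and MYO1C 26 in A, and MYO1D held 13 and DYNC1LI1 10 in B. In the EV library of A, 3 of the 24 muscle and cilium genes (12.5%) had 3 counts in all. There 6 of the 33 widely expressed genes (18.2%) had 32, of which MYO1D supplied 19 and DYNC1LI1 7. Named genes stood at 2.96% in that library. In the sum of A, 1 of 7 skeletal muscle markers (14.3%) and 1 of 5 cardiac muscle markers (20%) had a count. Of smooth muscle markers it was 2 of 5 (40%), and of ciliated epithelium markers 1 of 6 (16.7%). The sum of B had 14.3%, 0%, 20% and 16.7% in the same order. Named genes stood at 13.3% in A and 10.5% in B, and protein-coding named genes at 18.7% and 14.8%. Skeletal muscle had counts from MYOG alone, 4 in A and 7 in B, with 1 EV count in each animal. At least 5 counts were reached by 1.51% of named genes in the sum of B. CKM, ACTA1, MB and DES were at 0. Smooth muscle had counts from 2 of 5 markers, ACTA2 with 1 and 1 and SMTN with 1 and 0. Cardiac muscle had 5 counts of MYBPC3 in A alone, with NPPA and TNNT2 at 0. Ciliated epithelium had 1 count of MCIDAS in each sum, with FOXJ1 and TPPP3 at 0.

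The EV libraries differed widely in motor genes. That of A had 49 counts, 0.471% (0.349% to 0.623%), and that of B had 1, 0.0352% (0.000891% to 0.196%), a ratio of shares of 13.4 (2.29 to 540). Without MYO1D it was 30 counts against 1, a ratio of 8.20 (1.36 to 335). All named genes together had a ratio of 1.55 (1.45 to 1.67). Thinned to the total of B, the library of A would be expected to show 7.11 motor genes and 294 named genes, where B showed 1 and 338. After MYO1D, DYNC1LI1, KIF1A and KIF26A came KIF21A, DYNC2I1, MYH14 and KIF7 with 2 counts each, and MYO1C, KIF26B, MYO18B, MYO15A, MYO5B, DNAH1 and DNAH3 with 1. EV counts came to 21.9% of the summed motor gene counts in A, against 14.1% for named genes, and to 0.685% in B, against 3.0%. Single genes weighed heavily here, as MYO1D supplied 19 of the 49 EV counts in A. Without KIF19, which had no EV count, the motor values were 32.7% in A and 1.37% in B. These are ratios of 2 columns, because EV counts were not always part of the sums. Of named genes, 20349 were at 0 in both sums but 20325 in all 4 columns, so some had EV counts alone. For motor genes both numbers were 56. For KIF7, MYH14, DNAH1 and DNAH3 in A and MYO1A in B, the sum equalled the EV count.

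Less their EV counts, the sums of both animals held nearly the same values for the leading motor genes. MYO1D had 13 and 13 counts left, KIF1A 11 and 11, DYNC1LI1 9 and 10, and KIF19 74 and 73. MYO1C, with 25 and 2, and KIF26A, with 6 and 2, were the exceptions among the 9 motor genes with at least 5 counts left over both animals. Of these 9, 3 were equal (33.3%) and 7 lay within 1 count (77.8%), against 24.6% and 46.4% of the 694 named genes with as many. Over every gene with a count left the shares were close, with 36.1% of 36 motor genes equal and 83.3% within 1 count, against 31.3% and 80.1% of 3405 named genes. The sums as deposited were higher in A by 19 counts for MYO1D, 5 for KIF1A and 6 for DYNC1LI1, and the EV library of A held 19, 5 and 7 counts of them. Which libraries each sum holds is not stated, so the animals cannot be read as independent results. Some named genes had EV counts without a summed count, so the remainders are plain differences and may not be the counts of other libraries.

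**Figure D3:**
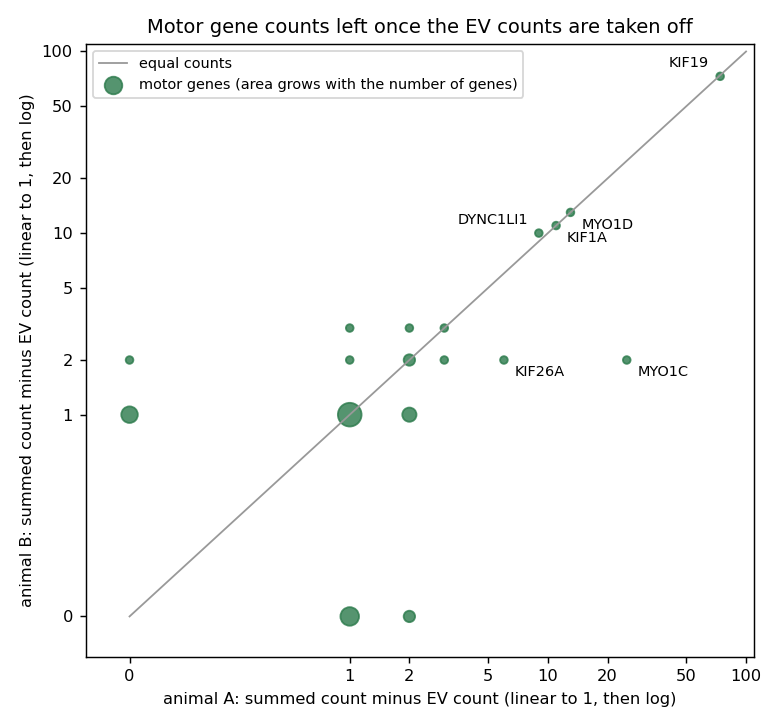
Summed count minus EV count for motor genes with any count left, animal A on the horizontal and animal B on the vertical axis, both linear to 1 and logarithmic above; the grey line marks equal counts and larger points hold more genes. KIF19, MYO1D, KIF1A and DYNC1LI1 lie on or within 1 count of the line, and MYO1C, at 25 and 2, lies far from it.

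The partners of the motors, from 7 lists, showed no common level. For comparison, 13.3% of named genes had a count in the sum of A and 10.5% in that of B. Of named protein-coding genes it was 18.7% and 14.8%. Myosin light chains, the small subunits on the neck of the heavy chain, and the kinases that phosphorylate them had 0 of 14 genes in every column. Kinesin light chains and adaptors, which couple kinesins to cargo, had 6 of 11 in the sum of A (54.5%) and 4 in B (36.4%), led by KLC2 with 4 and 4 counts, then KLC4 with 3 and 1, MAPK8IP1 with 2 and 2 and TRAK1 with 2 and 1. Dynein light chains, dynactin and adaptors had 4 of 25 (16.0%) and 1, with HOOK2 at 5 and 2, BICD2 at 3 and 0, and DCTN1 and DCTN2 at 1 and 0. Sarcomere partners had 9 of 29 (31.0%) and 8 (27.6%). RYR2, the calcium release channel of heart muscle, had 33 and 25 counts, the giant spring protein gene TTN 13 and 8, LDB3 5 and 4, and MYOM3 4 and 3. The other sarcomere partners with a count were MYBPC3 with 5 and 0, RYR1 with 2 and 1, and TPM1 and XIRP1 with 1 and 1. TNNT1 had 1 and 0, and TNNT3 had 0 and 1. ACTA1, ACTC1 and the troponin C genes were at 0. RYR2 is also expressed in brain, and the tissue behind these counts was not tested.

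Axoneme partners had 7 of 36 genes (19.4%) in A and 6 (16.7%) in B. SPAG6, of the central pair of the axoneme, had 10 and 7 counts, HYDIN 1 and 3, CFAP65 2 and 1, and DNAAF5 1 and 1. Intraflagellar transport genes had 3 of 19 (15.8%) in each sum, TTC21B with 7 and 8, IFT172 with 2 and 1 and IFT80 with 1 and 1. Tubulins, the subunits of the microtubule track, had 3 of 13 (23.1%) in A and 1 (7.69%) in B, from TUBA4A with 3 and 0, TUBG1 with 1 and 1 and TUBB4A with 1 and 0. The axoneme and intraflagellar lists therefore stood near the share of all named protein-coding genes in both sums.

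**Figure D4:**
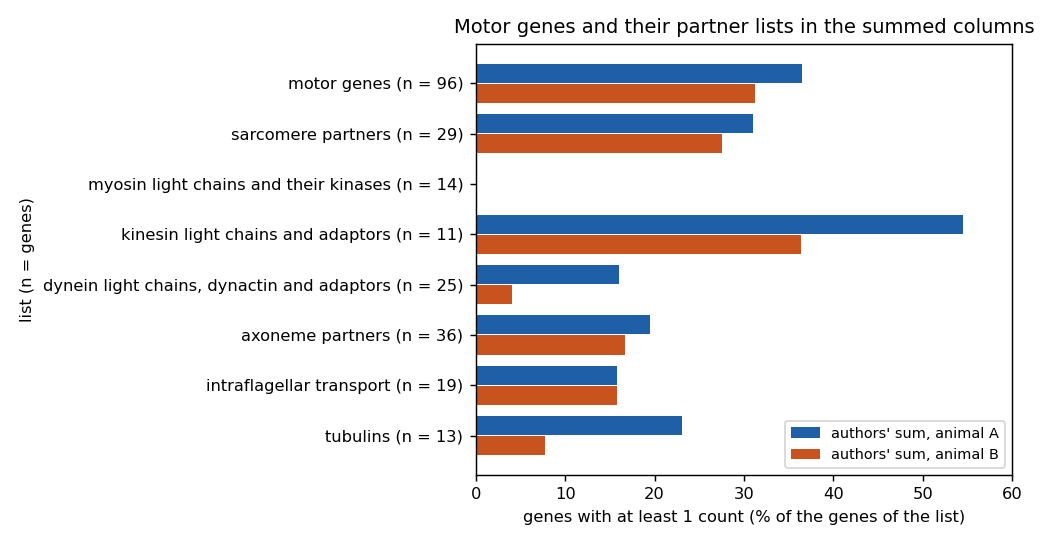
Percent of genes with at least 1 count in the authors' sums for the motor genes and 7 lists of partner genes; blue bars are animal A and orange bars animal B. The motor genes stand at 36.5% and 31.3%, kinesin light chains and adaptors at 54.5% and 36.4%, and myosin light chains and their kinases at 0. Not drawn are all named genes, at 13.3% and 10.5%, and named protein-coding genes, at 18.7% and 14.8%.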

How the data were processed

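Per the labels' protocols, RNA of the plasma fractions was extracted with Norgen reagents, and libraries were built with the UPXome kit of QIAGEN. The submitters' processing notes name STAR as aligner. Not given in the sources used here are its version, the genome build, the annotation, the strand setting of the EV table and any collapsing of PCR copies.

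The authors deposited raw counts per Ensembl gene for the 2 EV libraries and summed counts per animal. Columns were matched to samples by the animal and fraction they name, and genes absent from the EV table were set to 0. Input reads are the authors' deposited counts per library, and mapped reads are deposited as a percent of input. Lipoprotein and protein libraries had no gene counts of their own here. The table that pairs identifiers with symbols covered 24186 of 35432 genes. RefSeq entries were matched by symbol and gave protein-coding status. Overlapping and neighbouring genes were found from the positions of genes on the RefSeq assembly; no coordinates are printed, because the build of the counts is not given.

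A gene was taken as detected at 1 count. Shares were given Clopper-Pearson intervals, and ratios of shares exact conditional binomial intervals. Ratios between the sums treat the sums as independent, which is unknown. On simulated EV counts for 1058 genes, 764 of 767 ratio intervals held the true ratio. The counts were drawn from the model that the intervals assume. The simulation therefore checks the calculation and cannot show how the intervals hold for real libraries. Thinning used the hypergeometric expectation. Python 3.11.15, pandas 2.3.3 and scipy 1.17.1 were used.

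The motor genes, their groups, the partner and marker lists and the rule for named genes (every member with an EV count, the 20 highest by summed counts, the highest of each group, up to 4 undetected members of each group and up to 4 genes of each partner list) were chosen with earlier results of these data known. MYH7B, MYO6, genes below the 20 highest, marker genes and sarcomere partners beyond the 4 highest fall outside it and were chosen after their values were seen. Not every member that this rule covers is reported here by name. The planned analyses by protein length, and the planned printing of protein stretches, were not run because no protein sequences were used here.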

Additional observations from a re-analysis of the deposited data

Results flagged for a closer look

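The animals differed in direction in 2 comparisons, and neither difference between the animals was tested. In the EV libraries, the percent of motor genes detected less that of named genes was 12.7 percentage points for A but -0.356 for B, where B rests on the lone count of MYO1A. In the sums, the percent of muscle and cilium members detected less that of widely expressed members was -3.03 points for A but 1.14 for B, each less than the 4.17 points that 1 gene of 24 is worth. At a minimum of 2 counts this difference was 3.79 and 5.68 points, in the same direction in both animals.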

How the results depend on the processing

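Of 50 alternatives, 31 left a value within its limits, 18 moved it and 1 reversed it. Some of the 31 could not have come out otherwise. All 96 motor genes have a RefSeq protein, so keeping only such genes changed nothing. Leaving out either of the 2 EV libraries always moves their mean by less than its limit, the SD. Detected motor genes numbered 22, 14, 8 and 0 at a minimum of 2 counts (sum A, sum B, EV A, EV B) and 11, 7, 4 and 0 at 3 counts. Thinned to the total of B, EV A had an expected 7.1 motor genes. At 2 counts the excess of motor over named genes was 17.4, 10.4 and 7.31 percentage points (sum A, sum B, EV A), against 23.2, 20.8 and 12.7 at 1 count. The muscle and cilium difference in sum A turned to 3.79 points at 2 counts and was -8.33 with the EV count taken off; in sum B it was 5.68 at 2 counts, and in EV A it went from -5.68 to -12.1. The cause was not tested. Without the member with the most counts, the motor share was 0.239%, 0.134%, 0.289% and 0%. As a share of named counts alone it was 0.609%, 0.479% and 0.943% (sum A, sum B, EV A), since that total is smaller. Equal values fell from 36.1% of 36 motor genes with a count left to 20% of 40 in the sums as deposited, and those of named genes from 31.3% of 3405 to 25.3% of 3837. Leaving out an EV library moved the mean percent of motor genes detected between 1.04% (without A) and 15.6% (without B), and their mean share of counts, 0.253% ± 0.308 (SD, n = 2), between 0.0352% and 0.471%. Against protein-coding genes, a comparison added after the data were seen, the excess was 17.7 and 16.4 points in the sums. The alternatives by protein length were not run. No paired analysis was possible because each animal gave 1 EV library and 1 sum.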
